A study of Homo sapiens with 22 samples.

Results

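The 8 libraries described here are the iMAE-1 libraries of the series, 8 of 22, taken as a pair of blocks that cut across the guide labels. Block A holds iMAE-1.1 replicates 1 and 2 with iMAE-1.2 replicates 3 and 4. Block B holds iMAE-1.1 replicates 3 and 4 with iMAE-1.2 replicates 1 and 2. The blocks were chosen by the expected counts of these same libraries, so every difference between block A and block B below is a description and carries no test. All 8 libraries came from 786-M1A, a renal cancer cell line derived from 786-O for its growth as metastases, carrying a CRISPR interference guide named iMAE-1.1 or iMAE-1.2. They were set beside SC replicates 3 to 6, 4 libraries of 786-M1A with the control guide labelled SC. All were grown in RPMI with 10% FBS and extracted at 80% confluence, and stranded poly(A) libraries were amplified for 15 PCR cycles. The labels do not say what the guides bind, whether replicates were separate cultures, or whether cells were clones or pools, so p-values measure only the spread between these libraries.

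In CRISPR interference a catalytically inactive Cas9 fused to a repressor is led by a guide RNA to a promoter or enhancer and lowers transcription there, without cutting DNA. Guides to the same element are normally used as repeats of each other. Clear cell renal carcinoma, the tumour type of 786-O and its derivatives, is known for loss of VHL, constant activity of the HIF transcription factors and many gains and losses of chromosome arms.

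Depth overlapped between the groups, with totals of 11808051 to 17536097 expected counts in block A, 9062605 to 23677398 in block B and 10458838 to 17095649 in SC replicates 3 to 6. Weighted by reads, gene length also overlapped, with means of 3303 to 3379, 3299 to 3331 and 3264 to 3395 bases. Renal carcinoma markers summed to between 7565 and 8834 CPM (expected counts scaled to library size) over the 12 libraries, with 9 of 9 markers detected in each group. The 11 leukocyte markers summed to 30.0 to 39.5 CPM, the 7 endothelial markers to 2.39 to 5.27 CPM and the 9 fibroblast and smooth muscle markers to 12.1 to 19.02 CPM, with CD3E and HBB, and PDGFRA and COL3A1, at 0 in every group. In bulk RNA of this kind, fewer cells of a type and less RNA per cell cannot be told apart.

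On the first component of the log2 CPM of 14560 genes, which held 25.8% of the variance, block A lay between -26.1 and -24.9, block B between 10.5 and 16.9 and SC between 11.2 and 11.998. The second component, with 16.8% of the variance, put SC at 14.3 to 18.9 and block B at -30.4 to -4.77, with block A between -8.87 and 3.36. The typical gap between a pair of libraries, the root mean square difference in log2 CPM over genes, had a median of 0.378 for libraries of different guides within block A and 0.381 for libraries of the same guide there. Within block B these medians were 0.364 and 0.351. Across the blocks the median was 0.468 for the same guide and 0.456 for different guides, against 0.361 among SC libraries. SC libraries were 0.405 from block B and 0.466 from block A.

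**Figure D1:**
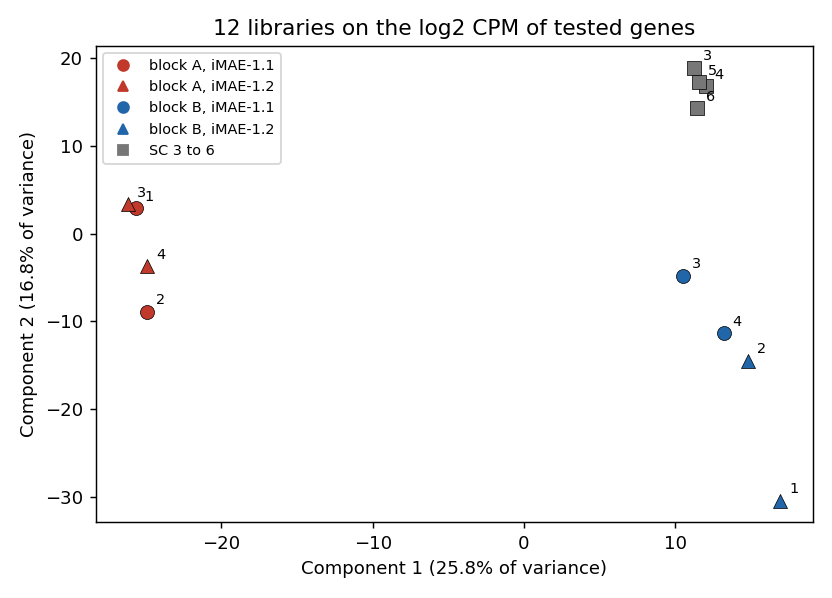
The 12 libraries on the first 2 components of log2 CPM, with each component's share of the variance on its axis. Colour gives the block, shape the guide and the number the replicate. Block A sits between -26.1 and -24.9 on the first component, and block B and SC sit between 10.5 and 16.9. The guides intermix in block A. In block B the iMAE-1.2 libraries lie higher on the first component and lower on the second than the iMAE-1.1 libraries.

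The libraries labelled with each guide, 2 in either block, were compared first. With the block as a term, 0 of 14318 genes (0%) passed an adjusted p of 0.05 for iMAE-1.2 against its sister guide by edgeR's quasi-likelihood test with Benjamini-Hochberg adjustment. At an unadjusted p under 0.05 there were 418 genes, 2.92% of those tested, and the lowest adjusted p was 0.9998. DESeq2 called 1 gene, LIMS3, which was lower with iMAE-1.2 (log2 fold change -1.56, adjusted p = 0.019) and has a near-identical copy, so its counts are uncertain. Among the 11126 genes of at least 5 CPM, the median size of the guide difference was 0.05 on the log2 scale and 5 genes differed by 1.5-fold or more. The same 2 values for block B against block A were 0.14 and 351, given as a description. The blocks would be the guides themselves if the guide labels of replicates 3 and 4 had been exchanged, which the labels give no means to check, so a crossed pair of blocks and exchanged labels cannot be told apart. The guide comparison therefore holds for the libraries as labelled, and the small number of calls does not show that the guides act alike.

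Whether the guide difference itself changed between the blocks was tested as an interaction. In this layout that contrast is the same as replicates 1 and 2 of both guides against replicates 3 and 4 of both, so a change of the guide difference and a difference between those replicate sets cannot be told apart. By edgeR's quasi-likelihood test 1 of 14318 genes (0.00698%) passed an adjusted p of 0.05, and 996 (6.96%) had an unadjusted p under 0.05. The gene was MINOS1-NBL1, a read-through transcript of a pair of neighbouring genes (adjusted p = 9.95e-06), named after its values were seen. Its expected counts were 114, 41.3, 0 and 0 in block A and 0, 0, 10.3 and 32.7 in block B. It thus had counts in replicates 1 and 2 of both guides and 0 in replicates 3 and 4 of both, and in SC it had 6.43, 40.5, 0 and 0. Because it shares its exons with both parent genes, how reads were divided among them is uncertain. DESeq2 called 8 other genes for the same contrast, ALDH1A1, CXCL5, DDIT4, EREG, NCEH1, SCD, SEMA3C and THBS1, so the calls of the tools had no gene in common. The edgeR count was 65 without iMAE-1.1 replicate 1, 19 without iMAE-1.2 replicate 4, 11 without iMAE-1.1 replicate 4, 5 without iMAE-1.2 replicate 1, 0 at a minimum count of 50, 4 without iMAE-1.1 replicate 2 and 2 without iMAE-1.2 replicate 2.

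Between the blocks, 3828 of 14318 genes (26.7%) had no overlap of any library, 1923 higher in block B (13.4%) and 1905 lower (13.3%). For the guides over the same 8 libraries, genes with no overlap numbered 165 (1.15%). Each guide has 2 libraries in each block, so a gene without overlap between the blocks must overlap between the guides. The blocks were also chosen from these counts, so the count for the guides is no like measure for the count between the blocks. A gene was called a block gene when, in addition, the fitted difference was at least 1.5-fold, which left 667 genes (4.66%), of which 420 were higher in block B (2.93%) and 247 lower (1.73%). At 2-fold there were 163 higher (1.14%) and 75 lower (0.524%). Scaled as log2(TPM + 1), which shrinks the folds of weakly expressed genes, the block genes numbered 357. On that scale 11 of 56 named genes had a fold change more than 1.5 times smaller in log2, and 0 changed direction. That limit of 1.5 times was chosen after seeing the data, and more of these genes moved by more than their SD within blocks.

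Among block genes of at least 5 CPM in a block, those with the largest differences toward block B have varied roles. In what follows, libraries are listed as iMAE-1.1 replicates 1 and 2 then iMAE-1.2 replicates 3 and 4 for block A, iMAE-1.1 replicates 3 and 4 then iMAE-1.2 replicates 1 and 2 for block B, and replicates 3 to 6 for SC. AMPH, which encodes amphiphysin, a membrane-bending adaptor of endocytosis, had 0.988, 0.330, 0.635 and 0.272 CPM in block A, 11.2, 10.3, 7.61 and 10.8 CPM in block B and 19.3, 18.6, 22.1 and 18.003 CPM in SC. Its log2 fold change of block B over block A was 4.11, or 2.19 as log2(TPM + 1), and all 3 groups were apart from each other, with SC highest. AFP, the fetal serum protein alpha-fetoprotein, had 2.17, 2.64, 2.48 and 2.24 CPM in block A, 17.4, 17.3, 18.4 and 16.7 CPM in block B and 3.01, 2.64, 2.40 and 2.65 CPM in SC. Here block A and SC were both low and overlapped, and block B stood alone. SLN, encoding sarcolipin, an inhibitor of the sarcoplasmic reticulum calcium pump, had 0.790, 1.15, 1.44 and 1.43 CPM in block A, 9.18, 8.30, 9.70 and 8.33 CPM in block B and 5.26, 5.19, 4.81 and 5.58 CPM in SC. SC lay between the blocks for this gene and touched neither.

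PLA2G4A, the cytosolic phospholipase A2 that frees arachidonic acid from membranes, was close to absent outside block B. It was picked out after its values were seen. Its expected counts were 0, 1, 0 and 0 in block A, 52, 95, 33 and 95 in block B and 0, 0, 0 and 1 in SC. That is 275 against 1 between the blocks, a ratio of 231 per count sequenced with an exact 95% interval of 41.2 to 9170 that covers counting error only. The interval does not allow for the choice of the blocks and of this gene from the same counts, and is no test of the difference. One other gene with a mean of at least 1 CPM in a block had no more than 3 counts in the other block. TVP23C-CDRT4, another read-through transcript, had 116 expected counts in block A and 0 in block B, at least 46.0-fold higher in block A against a floor of 3 counts over the block. SC libraries ranged from 0 to 10.9 CPM for it, and its counts are uncertain because it overlaps its parent genes.

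Among the other genes much higher in block B, GPR173, an orphan receptor coupled to G proteins, was 1.99 ± 0.486 CPM (mean ± SD, n = 4) in block A, 11.2 ± 1.76 in block B and 12.8 ± 1.44 in SC. NMU, the neuropeptide neuromedin U, was 4.33 ± 0.907, 14.1 ± 1.70 and 18.9 ± 2.93 CPM in the same order. LIMS2, a focal adhesion adaptor, was 1.90 ± 0.429, 7.43 ± 0.925 and 9.83 ± 2.62 CPM. For these 3 genes block A was the low group, and SC overlapped block B for GPR173 and LIMS2 and lay above it for NMU. DHRS3, which reduces retinal to retinol, spread widely within block B, at 10.99, 14.7, 18.9 and 30.8 CPM, above 4.81, 7.58, 4.44 and 4.96 CPM in block A. SC lay at 8.21, 8.96, 12.6 and 11.4 CPM and overlapped block B. TCEA3, a transcription elongation factor, SLAMF8, a receptor of the SLAM family, TRABD2B, a membrane protease that cleaves WNT proteins, SSC5D, a scavenger receptor, NME4, a mitochondrial nucleoside diphosphate kinase, and LOC101927229 had log2 fold changes of 1.62, 1.70, 1.65, 2.14, 1.56 and 1.56. As log2(TPM + 1) these were 1.28, 1.0998, 0.99, 0.99, 1.38 and 1.03, and the fold change of GPR173 on that scale was 1.56. ANXA8L1, an annexin with near-identical copies, had 1.95 and is uncertain, with 0 CPM in iMAE-1.1 replicate 2 and 2.54 to 4.35 CPM in the other block A libraries.

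Toward block A, the largest difference among block genes of at least 5 CPM in a block was in AKR1B10, an aldo-keto reductase that detoxifies reactive carbonyls. It had 26.6, 21.7, 25.9 and 24.2 CPM in block A, 4.40, 5.36, 5.84 and 5.72 CPM in block B and 6.45, 5.94, 6.14 and 7.65 CPM in SC. Block A was alone at the high level, and SC lay just above block B. Its relative AKR1C3, which reduces steroids and prostaglandins, had 6.32, 5.19, 5.19 and 4.76 CPM in block A, 2.52, 2.06, 2.32 and 1.62 CPM in block B and 0.752, 1.42, 1.07 and 0.978 CPM in SC. The order of the groups was block A, block B and SC, with no overlap. QPRT, an enzyme of NAD synthesis from tryptophan, was 56.98 ± 5.80 CPM in block A, 25.01 ± 2.998 in block B and 26.9 ± 0.965 in SC, and CHRDL1, a secreted antagonist of bone morphogenetic proteins, was 43.4 ± 3.22, 19.2 ± 3.08 and 14.8 ± 1.09 CPM.

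In a second set of genes it was block B that stood apart at a low level, while block A and SC were both high. DNAJC15, a chaperone partner of the mitochondrial inner membrane, had 15.9, 13.8, 13.6 and 15.6 CPM in block A, 5.88, 5.23, 4.41 and 5.64 CPM in block B and 19.3, 17.5, 17.9 and 18.3 CPM in SC. MTMR1, a phosphatase of phosphoinositides, was 13.04 ± 1.53 CPM in block A, 4.62 ± 0.568 in block B and 13.9 ± 0.442 in SC. EDN2, the vasoactive peptide endothelin 2, was 24.3 ± 1.98, 9.48 ± 1.498 and 23.1 ± 3.29 CPM. CYB5A, the electron carrier cytochrome b5, had 6.13, 6.59, 6.87 and 5.84 CPM in block A, 1.03, 2.15, 1.21 and 2.05 CPM in block B and 18.5, 14.3, 15.2 and 14.3 CPM in SC, so that block B was lowest, block A intermediate and SC highest. The remaining genes much lower in block B were ZNF43, a zinc finger repressor, APH1B, a subunit of gamma-secretase, PEAR1, a receptor of platelets and endothelium, COL14A1, a fibril-associated collagen, WSCD1, EVI2A and LOC643201, with log2 fold changes from -1.90 for LOC643201 (-0.99 as log2(TPM + 1)) to -1.11 for PEAR1. COL14A1 was at -1.23, or -0.62 as log2(TPM + 1).

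**Figure D2:**
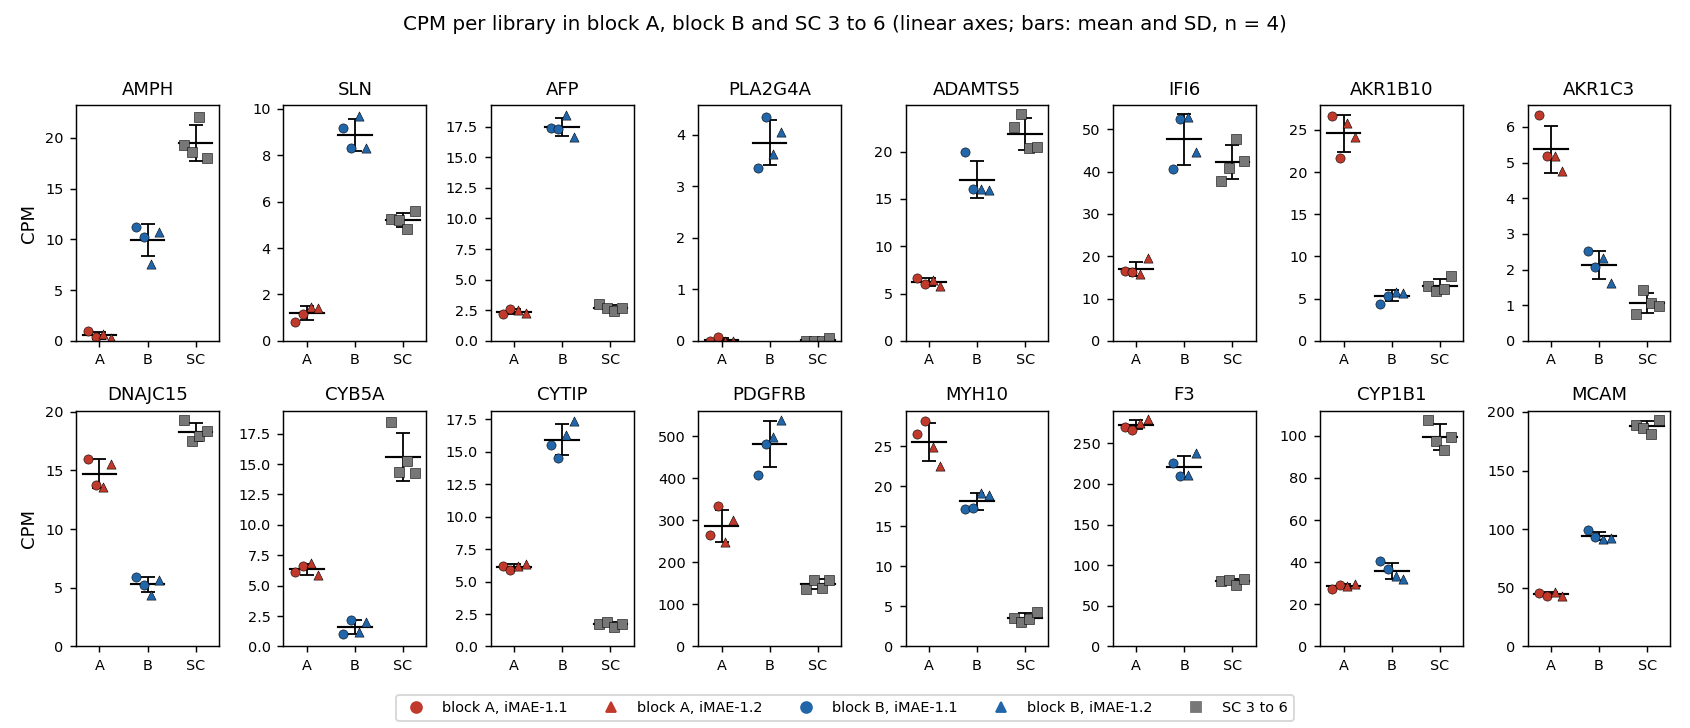
CPM of 16 genes in each library of block A, block B and SC 3 to 6, on linear axes that start at 0. Circles are iMAE-1.1, triangles iMAE-1.2 and squares SC, and bars give the mean and SD of 4 libraries. Within a block the 2 guides, with 2 libraries each, overlap for some genes and stand apart for others, such as MYH10. For MYH10 iMAE-1.1 is the higher guide in block A and the lower in block B. SC sits with block A for AFP and PLA2G4A, and with or close to block B for IFI6 and AKR1B10. It lies outside both blocks for MYH10, F3, CYP1B1 and MCAM.

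Interferon-stimulated genes, the antiviral set switched on by interferon signalling, gave 7 block genes of 32 tested, all higher in block B (background 2.93%). These were IFI6, IFI27, ISG15, MX2, OAS2, RSAD2 and IRF7. The median log2 fold change of the 32 genes was 0.31, against -0.01 over all genes tested. By overlap alone, 16 of 32 were higher in block B and 2 were lower (backgrounds 13.4% and 13.3%). IFI6, a mitochondrial protein induced by interferon, had 16.4, 16.3, 15.9 and 19.6 CPM in block A, 40.7, 52.5, 52.9 and 44.7 CPM in block B and 37.9, 40.9, 47.6 and 42.5 CPM in SC. ISG15, a ubiquitin-like modifier, had 48.4, 46.7, 45.3 and 45.6 CPM in block A, 66.5, 75.6, 74.97 and 64.9 CPM in block B and 74.9, 71.2, 80.01 and 73.3 CPM in SC. IFI27 had 2.31, 2.23, 2.25 and 3.40 CPM in block A, 4.40, 5.64, 5.95 and 4.40 CPM in block B and 10.8, 11.4, 14.03 and 14.03 CPM in SC. Both blocks were thus below SC for IFI27, while block B overlapped SC for IFI6 and ISG15. MX2, OAS2 and RSAD2, 3 restrictors of viral replication that stayed under 6 CPM, were 1.83 ± 0.732, 1.27 ± 0.427 and 1.31 ± 0.385 CPM in block A and 4.95 ± 0.654, 3.02 ± 0.751 and 3.24 ± 0.806 CPM in block B. IRF7, a transcription factor of the same response, was 4.54 ± 0.642 and 7.64 ± 1.07 CPM.

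The promoters of the 3 interferon block genes that hold an interferon-stimulated response element are shown because this list had the most block genes in 1 direction of the lists examined, and the element is the one known to drive transcription after interferon. They are the 250 bases before the RefSeq gene start (GRCh38.p14), 5′ to 3′ on the gene's strand, with matches to GAAA, any 2 bases and GAAA on either strand in capitals. Matches that overlap run together.
IFI6, chr1:27672193-27672442, minus strand: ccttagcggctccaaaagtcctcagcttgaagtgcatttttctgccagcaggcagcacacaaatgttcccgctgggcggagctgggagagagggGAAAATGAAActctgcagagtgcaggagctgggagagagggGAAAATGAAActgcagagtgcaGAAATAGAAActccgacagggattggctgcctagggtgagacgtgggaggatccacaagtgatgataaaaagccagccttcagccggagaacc
ISG15, chr1:1013247-1013496, plus strand: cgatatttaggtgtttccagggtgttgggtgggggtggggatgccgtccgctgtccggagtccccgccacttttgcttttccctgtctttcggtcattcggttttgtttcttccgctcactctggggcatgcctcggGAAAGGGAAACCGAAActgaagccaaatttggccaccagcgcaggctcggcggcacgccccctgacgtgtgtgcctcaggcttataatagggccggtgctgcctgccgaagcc
IFI27, chr14:94110486-94110735, plus strand: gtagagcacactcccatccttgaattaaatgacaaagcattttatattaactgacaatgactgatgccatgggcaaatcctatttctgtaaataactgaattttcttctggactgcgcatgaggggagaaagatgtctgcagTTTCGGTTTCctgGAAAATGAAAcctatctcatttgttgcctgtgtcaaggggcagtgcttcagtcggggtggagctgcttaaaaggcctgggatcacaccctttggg
IFI6 had 3 such matches, ISG15 2 and IFI27 2. RSAD2, the other block gene of the list with an entry, did not have these letters in its window. The motif stood in 14 of 24 promoters of the list (58.3%) and in 276 of 11259 promoters of all genes tested (2.45%). Among block genes it stood in 14 of 318 promoters of those higher in block B (4.40%) and in 2 of 170 of those lower (1.18%). The AP-1 motif TGANTCA, searched the same way, stood in 5.35% and 7.65% of the promoters of these 2 sets and in 4.23% of all. The sterol regulatory element TCACNCCAC stood in 7 of 318 (2.20%) and 5 of 170 (2.94%), and in 98 of 11259 of all (0.870%). Other motifs were searched as well and are not listed. A match is a description of the letters and not a bound site.

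Genes of the matrix-cleaving proteases and the plasminogen system gave 5 block genes higher in block B and 2 lower of 16 tested, where the shares over all genes were 2.93% higher and 1.73% lower. ADAMTS5, which cleaves aggrecan, had 6.65, 6.02, 6.46 and 5.78 CPM in block A, 19.98, 16.04, 16.1 and 15.97 CPM in block B and 22.6, 23.96, 20.4 and 20.5 CPM in SC, so that block A was lowest and SC lay just above block B. MMP13, a collagenase, was 4.27 ± 0.754 CPM in block A, 11.02 ± 0.630 in block B and 9.67 ± 1.03 in SC. MMP7, matrilysin, spread within block B, at 3.04, 3.44, 5.62 and 7.30 CPM, and SC at 5.70, 6.79, 8.48 and 6.56 CPM overlapped it, above 1.32, 1.90, 0.866 and 0.815 CPM in block A. SERPINE2, an inhibitor of thrombin and urokinase, went the other way, at 52.9 ± 3.84 CPM in block A, 33.8 ± 1.44 in block B and 31.1 ± 1.02 in SC.

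NRF2, a transcription factor of the oxidative stress response, is known to drive the next list, which had 3 block genes lower in block B and 1 higher of 20 tested (all genes 1.73% and 2.93%), with a median of -0.17. The lower genes were AKR1B10, AKR1C3 and OSGIN1, a growth inhibitor induced by oxidative stress, at 23.2 ± 1.055 CPM in block A, 11.02 ± 0.992 in block B and 11.7 ± 0.959 in SC. The higher gene was HMOX1, heme oxygenase 1, at 24.8 ± 2.69, 47.9 ± 3.41 and 37.4 ± 3.28 CPM. Members of this list therefore differed between the blocks in both directions.

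Output genes of the ERK kinases gave 3 lower (DUSP5, DUSP6 and ETV1) and 1 higher (EPHA4) block genes of 15 tested (all genes 1.73% and 2.93%). DUSP5, a nuclear phosphatase that switches ERK off, was 35.5 ± 2.34 CPM in block A, 19.8 ± 1.052 in block B and 18.98 ± 2.46 in SC. DUSP6, its cytoplasmic counterpart, was 8.13 ± 0.827, 5.27 ± 0.901 and 4.55 ± 0.904 CPM. The AP-1 subunit FOSL1, from the list of immediate-early factors, was 339 ± 15.9, 218 ± 13.1 and 189 ± 5.31 CPM. Block A was the high group for DUSP5, DUSP6 and FOSL1. EPHA4, an ephrin receptor, was 7.57 ± 0.437 CPM in block A and 11.5 ± 1.08 in block B. JUND, another AP-1 subunit of the immediate-early list, was 177 ± 13.03 and 269 ± 22.5 CPM. Of the immediate-early factors, 2 of 21 tested were block genes in each direction, against 2.93% higher and 1.73% lower over all genes.

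NF-kB targets and cytokines also gave 2 block genes in each direction, of 23 tested, beside the same shares over all genes. TRAF1, an adaptor of TNF receptors, and CCL2, a chemokine for monocytes, were higher in block B, at 8.21 ± 1.86 against 18.1 ± 1.80 CPM and 37.3 ± 5.36 against 60.2 ± 6.36 CPM. The cytokine genes CSF2 and IL11 were lower, at 5.31 ± 0.926 against 3.24 ± 0.907 CPM and 16.9 ± 1.94 against 10.3 ± 1.02 CPM. Of 28 genes of the ATF4 amino acid response, 3 were block genes, all higher in block B (all genes 2.93%). CHAC1, which degrades glutathione, NUPR1, a stress-induced nuclear protein, and GDF15, a stress hormone, had log2 fold changes of 0.91, 0.87 and 0.68. Targets of the mechanically regulated cofactors YAP and TAZ gave 0 higher and 2 lower of 21 (all genes 2.93% and 1.73%), with 11 of 21 lower in block B by overlap alone against a background of 13.3%.

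The hypoxia list gave 2 block genes of 20 (EGLN3, an oxygen sensor, and LOX, a collagen crosslinker) and the collagen and matrix list 2 of 21 (COL6A3 and LUM), all higher in block B, where 2.93% of all genes were. Single block genes were higher in block B among 18 TGF-beta targets (BAMBI), 21 p53 targets (TP53INP1), 6 aryl hydrocarbon receptor genes (AHRR), 14 heat shock proteins (CRYAB), 21 adhesion genes (EPCAM) and 17 tubule genes (ANPEP, a brush border peptidase). A single gene in lists of this size is no result about the list at a share of 2.93% over all genes. By overlap alone, TGF-beta targets had 8 genes higher in block B and 1 lower, and p53 targets 8 and 2. The aryl hydrocarbon receptor list had 4 and 1, adhesion genes 7 and 2, and tubule genes 4 and 1. Heat shock proteins went the other way, with 1 higher and 6 lower and a median of -0.17. Over all genes these shares were 13.4% and 13.3%. ANPEP was 0.194 ± 0.0957 CPM in block A, 1.39 ± 0.460 in block B and 2.43 ± 0.360 in SC. One of 7 metallothionein and metal response genes, MT1E, was lower (all genes 1.73%). No block gene was found among 30 genes of DNA replication and mitosis, 33 cytosolic ribosomal protein genes, 28 genes of the respiratory chain and ATP synthase, 22 of glycolysis, 20 of the unfolded protein response, 24 of sterol and fatty acid synthesis or 15 of class I antigen presentation, where the share of block genes over all genes was 4.66%. At that share lists of this size hold few or none. Their medians lay between -0.06 and 0.03 on the log2 scale. The renal transcription factor PAX8 was 405 ± 18.6 CPM in block A, 450.3 ± 16.4 in block B and 411 ± 24.2 in SC.

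SC replicates 3 to 6 were then placed on the 667 block genes on a scale where 0 is the block A mean and 1 the block B mean in log2 CPM. SC was not used to choose these genes. The median place of SC was 0.693, and the 4 SC libraries taken singly had medians from 0.668 to 0.752. SC was nearer block B for 70.0% of the genes, made up of 299 between the block means and 168 beyond block B. It was nearer block A for 160 genes between the means and 40 beyond block A. For genes higher in block B the median place was 0.716 and for genes lower in block B 0.667. By range, SC was clear of block A and overlapped block B for 289 genes, was clear of block B and overlapped block A for 132, and overlapped both for 115. It stood between the blocks and clear of both for 75, beyond block B for 48 and beyond block A for 8.

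**Figure D3:**
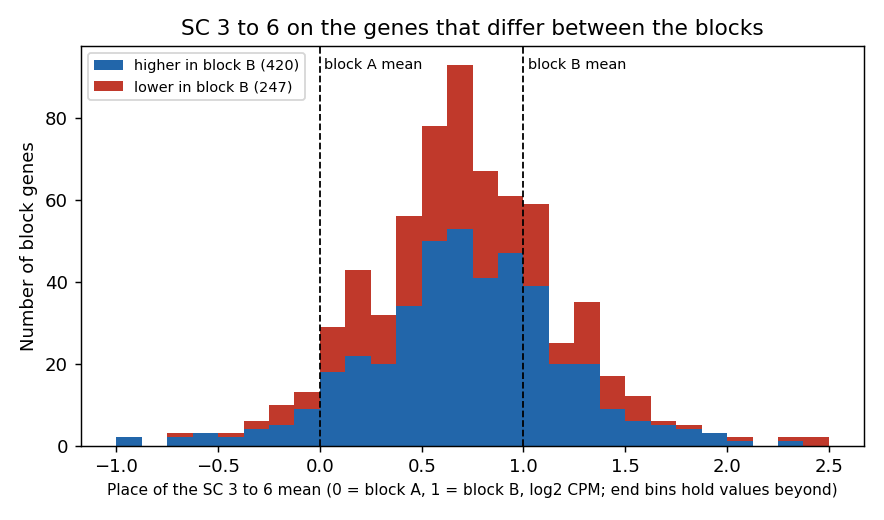
Number of block genes by the place of the SC 3 to 6 mean, with 0 at the block A mean and 1 at the block B mean in log2 CPM, and colour for the direction in block B. The median is 0.693, and SC lies past block B for 168 genes and past block A for 40.

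The mean of both blocks was tested against SC replicates 3 to 6. By edgeR's quasi-likelihood test 2111 of 14560 genes (14.5%) had an adjusted p under 0.05, 907 higher (6.23%) and 1204 lower (8.27%), and 116 (0.797%) also differed by 2-fold or more. This fit gives each guide in each block its own mean, and the blocks were chosen from these same counts, which narrows the residual spread and makes its p-values too small. Fitted as a single group that ignores guide and block, the 8 libraries gave 648 called genes, 312 higher (2.14%) and 336 lower (2.31%). Of the 907 that rose, both blocks were clear of every SC library for 349, only block A for 324, only block B for 165 and neither for 69. Of the 1204 that fell, these counts were 395, 536, 183 and 90. Counting by overlap alone, block A had 1667 genes above SC (11.4%) and 1783 below (12.2%), and block B 1192 above (8.19%) and 1268 below (8.71%).

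Some of the genes that rose most did so in both blocks. MYH10, a non-muscle myosin heavy chain, had 26.5, 28.1, 24.8 and 22.5 CPM in block A, 17.1, 17.2, 19.2 and 18.9 CPM in block B and 3.57, 3.11, 3.41 and 4.31 CPM in SC. It rose by a log2 fold change of 2.55 (SE 0.10, adjusted p = 1.07e-16), and all 8 iMAE libraries were above all SC libraries. F3, tissue factor, which starts blood coagulation, had 270.4, 266, 275 and 279.6 CPM in block A, 226, 210.3, 212 and 238 CPM in block B and 80.4, 82.1, 76.1 and 82.5 CPM in SC, a log2 fold change of 1.62 (SE 0.05, adjusted p = 1.44e-18). DKK3, a secreted protein of the Dickkopf family, STC1, the hormone stanniocalcin 1, and MALL, a membrane protein of lipid rafts, rose with log2 fold changes of 1.94 (SE 0.12, adjusted p = 1.33e-11), 1.43 (SE 0.13, adjusted p = 6.65e-09) and 1.31 (SE 0.08, adjusted p = 3.75e-12), and for these 3 genes the blocks overlapped each other and lay above SC.

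For other genes that rose, the blocks stood at different levels. CYTIP, a binding partner of cytohesins in leukocyte adhesion, had 6.19, 5.85, 6.18 and 6.32 CPM in block A, 15.5, 14.5, 16.3 and 17.3 CPM in block B and 1.75, 1.89, 1.54 and 1.73 CPM in SC. The tested log2 fold change was 2.52 (SE 0.12, adjusted p = 3.64e-14), and every block B value was above every block A value. PDGFRB, the beta receptor for platelet-derived growth factor, had 265, 334, 247 and 301 CPM in block A, 407, 481, 499 and 539 CPM in block B and 136, 159, 138 and 157 CPM in SC, a log2 fold change of 1.33 (SE 0.08, adjusted p = 2.50e-08). Block B was again the higher block. AKR1C3 rose with a log2 fold change of 1.69 (SE 0.21, adjusted p = 1.55e-06), with block A as the higher block.

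Among genes that fell, CYP1B1, a cytochrome P450 that oxidises estrogens and aromatic hydrocarbons, had 27.2, 29.2, 28.7 and 29.8 CPM in block A, 40.8, 36.9, 33.5 and 31.9 CPM in block B and 108, 97.7, 93.04 and 99.2 CPM in SC, a log2 fold change of -1.64 (SE 0.05, adjusted p = 1.44e-18). MCAM, a cell adhesion molecule of the immunoglobulin family, had 45.3, 43.2, 46.8 and 42.9 CPM in block A, 99.4, 93.6, 92.1 and 92.9 CPM in block B and 189, 187, 181 and 193 CPM in SC, a log2 fold change of -1.53 (SE 0.04, adjusted p = 3.22e-19). Every block A value of MCAM was below every block B value, and all were below SC. AMPH fell with a log2 fold change of -3.01 (SE 0.13, adjusted p = 1.31e-14) and CYB5A with -2.23 (SE 0.12, adjusted p = 1.10e-12). TFCP2, a transcription factor at 0.328 ± 0.0978 CPM in block A, 3.08 ± 0.143 in block B and 5.42 ± 0.671 in SC, had -2.42 (SE 0.17, adjusted p = 1.66e-10), IFI27 -1.82 (SE 0.12, adjusted p = 4.03e-11) and MMP7 -1.56 (SE 0.15, adjusted p = 1.96e-08). In the fit that ignores guide and block, 3 of these no longer passed by edgeR, with adjusted p = 0.211 for AMPH, 0.156 for TFCP2 and 0.235 for MMP7. HNRNPA1P33, a pseudogene whose reads may belong to its parent gene, had -1.68 (SE 0.14, adjusted p = 3.35e-09).

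The lists were also set beside SC, against a background of 6.23% higher and 8.27% lower, or 2.14% and 2.31% in the fit that ignores guide and block. Of 32 interferon genes, 22 fell and 0 rose (12 and 0 in the fit that ignores guide and block), and the median difference from SC was -0.51 in block A and -0.24 in block B. Of 24 sterol and fatty acid synthesis genes, 21 fell and 0 rose (13 and 0 in that fit), with medians of -0.30 in block A and -0.29 in block B. HMGCS1, the HMG-CoA synthase of the mevalonate pathway, was 199 ± 5.19 CPM in block A, 172 ± 9.12 in block B and 265 ± 5.83 in SC, and SQLE, squalene epoxidase, was 187 ± 5.07, 178 ± 8.21 and 236 ± 5.13 CPM. Both were named after their values were seen. Of 15 class I antigen presentation genes, 9 fell and 0 rose (6 and 0), with medians of -0.18 and -0.20. Of 15 ERK output genes, 7 rose and 0 fell (2 and 0), with medians of 0.50 in block A and 0.21 in block B. Of 20 hypoxia genes, 9 rose and 1 fell (6 and 0), with medians of 0.18 and 0.14. Of 21 growth factor receptors and ligands, 7 rose and 1 fell (5 and 1), with medians of 0.19 and 0.11. The median over all genes tested was 0.01 in block A and 0.00 in block B.

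CXCR4, a chemokine receptor, was too low to be tested. Its expected counts were 1, 1, 0 and 0 in block A, 5, 3, 1 and 3 in block B and 10, 9, 9 and 19 in SC. ACKR3, the scavenging receptor of the same ligand, was a block gene, at 6.26 ± 0.735 CPM in block A, 17.4 ± 1.83 in block B and 15.8 ± 1.23 in SC, and was named after its values were seen.

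The differences between the blocks were also arranged along chromosomes. The median log2 difference of block B from block A was -0.26 over 665 genes of chromosome 16 and 0.28 over 1009 genes of chromosome 19. Over the other 21 chromosomes (the autosomes and X) it ran from -0.11 for chromosome 5 to 0.06 for chromosome 8, and the gene-dense chromosomes 17 and 22 were both at -0.01. On chromosome 19, 491 of 993 genes tested over the 8 libraries had no overlap and were higher in block B (49.4%, background 13.4%), and 9 were lower. On chromosome 16, 346 of 656 were lower (52.7%, background 13.3%), and 12 were higher. These chromosomes hold 11.5% of the genes tested, 22.4% of the genes without overlap and 19.8% of the block genes. Without them there were 535 block genes.

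Block A was farther from SC than block B was on both chromosomes. The chromosome 19 medians of the 4 block A libraries, as a difference from the SC mean, ran from -0.25 to -0.20, those of block B from 0.01 to 0.08 and those of SC from -0.02 to 0.01. For chromosome 16 these were 0.16 to 0.21 in block A, -0.10 to -0.04 in block B and -0.02 to 0.02 in SC. Over all 23 chromosomes the single SC libraries stayed between -0.02 and 0.03, measured from a mean that each of them enters.

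**Figure D4:**
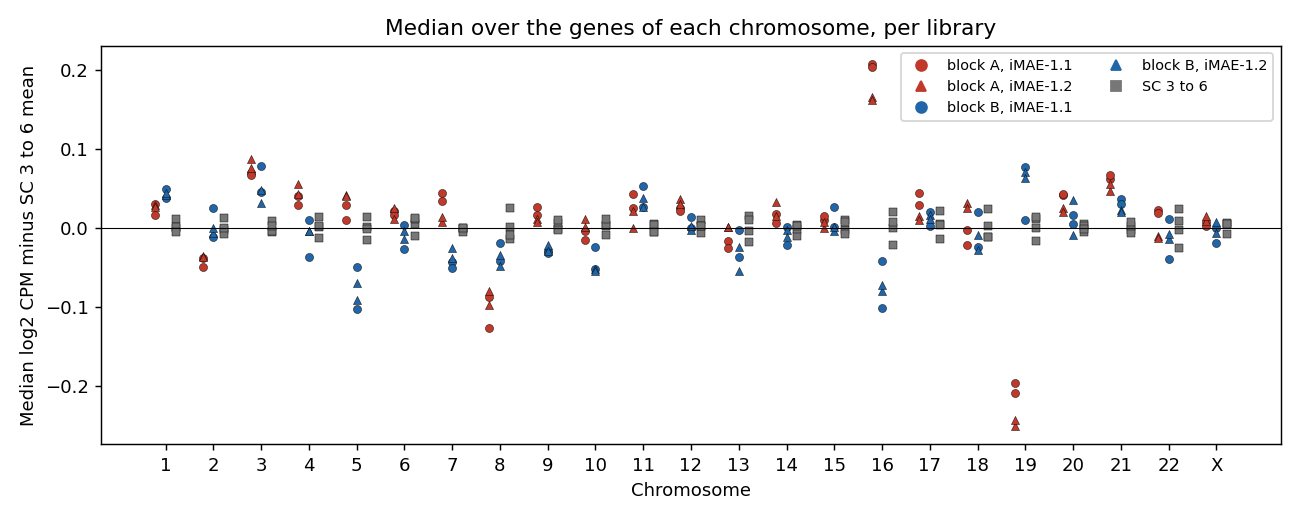
Median over the genes of each chromosome of log2 CPM minus the SC 3 to 6 mean, for each of the 12 libraries. Block A libraries lie between -0.25 and -0.20 on chromosome 19 and between 0.16 and 0.21 on chromosome 16, and no SC library leaves -0.02 to 0.03. Each SC library is part of the SC mean.

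Cut into 279 windows of at least 50 neighbouring genes, the differences formed runs. A window was counted when its median lay at least 0.15 from SC, a limit set after the values were seen. Block A passed it in 11 windows above and 25 below, block B in 7 above and 8 below, and the single SC libraries in 0. Each SC library enters the SC mean from which it was measured, which makes its difference smaller. The count for SC is thus no like measure for the blocks. Differences between the guides stayed within -0.06 and 0.06 in every window. In block A all 20 windows of chromosome 19 were below SC, from -0.31 to -0.16, and 11 of 13 windows of chromosome 16 were past the limit above it. The last 2 windows of chromosome 8, from FAM84B to C8orf33, were at -0.16 and -0.35 in block A and between -0.07 and -0.03 in block B. Windows 4 to 8 of that chromosome were also below SC, from -0.18 to -0.10 in block A and from -0.10 to -0.01 in block B. Of these, window 6 passed the limit in block A, at -0.18.

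Block B had runs of its own. The first 7 of 29 windows of chromosome 1, from WASH7P to ZBTB8OS, were 0.15 to 0.22 above SC in block B, against -0.03 to 0.10 in block A. The last 5 of 13 windows of chromosome 5, from CDKN2AIPNL to LOC100132062, were -0.24 to -0.16 in block B, against -0.03 to 0.08 in block A. Windows 2 and 4 of chromosome 16 also passed the limit below SC in block B, at -0.15 and -0.20. On chromosome 11 both blocks lay below SC in windows 14 to 16 of 16, from CUL5 to GLB1L3. The values there were -0.17, -0.12 and -0.15 in block A and -0.23, -0.14 and -0.10 in block B, not all past the limit. Gene order and chromosomes came from RefSeq on another build than the deposited counts, so the runs are given by the genes at their ends.

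**Figure D5:**
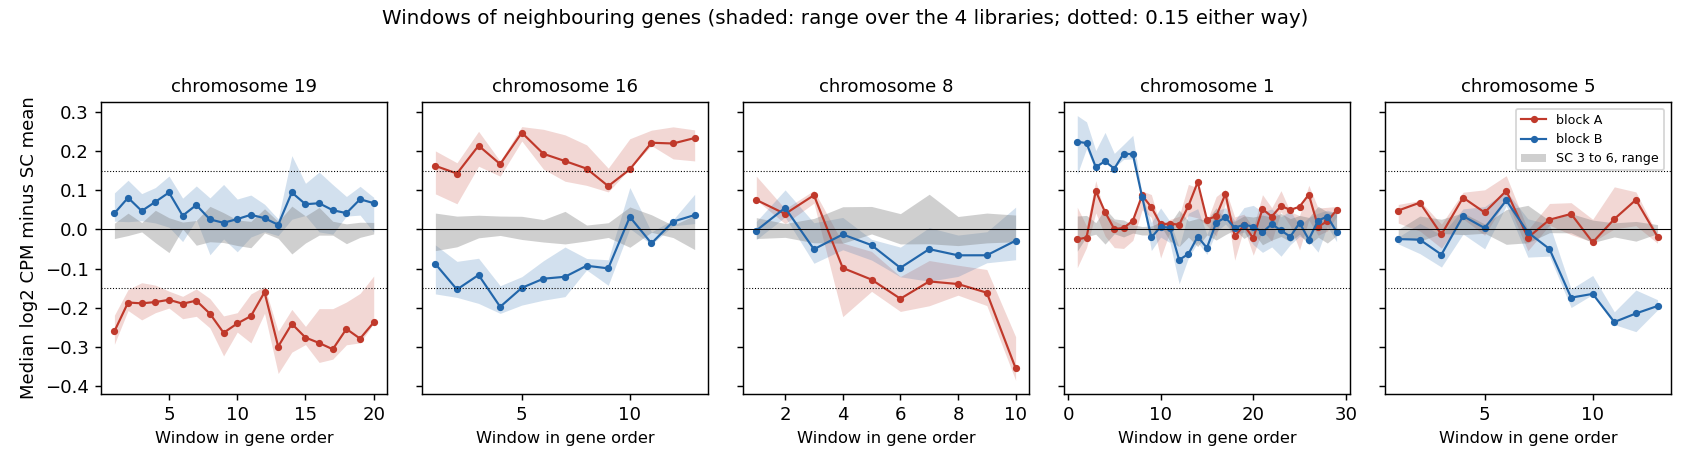
Median log2 CPM minus the SC mean in windows of neighbouring genes along 5 chromosomes, in gene order, for block A and block B, with shading for the range over 4 libraries and dotted lines at 0.15 either way. Block A lies below SC along all of chromosome 19. Block B passes the dotted lines over the first 7 windows of chromosome 1, the last 5 of chromosome 5 and windows 2 and 4 of chromosome 16.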

How the data were processed

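Files of 22 libraries were read, and 12 entered the comparisons. The other 10 were scaled with these only to place them in the closing section and for the scaling of the marker sums. Per the submitters' processing notes the authors used Bowtie2 and RSEM with hg19, and their versions are not stated there. The authors deposited expected counts and TPM for 25343 genes per library. Expected counts are RSEM's estimates, need not be whole (27.8% to 30.9% of all genes listed per library were not), split reads shared by genes, and were rounded here. No source used here says whether counting used strand. Counts were filtered (filterByExpr, minimum count 10, by block) and scaled by TMM in edgeR 4.0.16 (R 4.3.3). The guide, interaction and block fits used 8 libraries, and the comparison with SC used 12 with guide by block cells. Calls need an adjusted p under 0.05 over all genes tested. CPM and log2 CPM (prior count 2) come from the 12 libraries, with these exceptions. Overlap between the blocks or guides, and the genes of at least 5 CPM in the guide comparison, used CPM scaled over the 8 libraries. The marker sums and the closing section used values scaled over all 22. DESeq2 1.42.0, RLE factors, other filters, log2(TPM + 1) on the deposited TPM, other designs and leaving out each library were alternatives.

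The blocks, the choice of SC replicates 3 to 6 and the gene lists were chosen with earlier results of these data known. Named genes are, by rule, the 15 block genes most raised and the 15 most lowered in block B among those of at least 5 CPM in a block, up to 4 block genes of each list with 3 or more, up to 8 called genes a direction of each test at that level, and CXCR4, CYTIP, F3, CYP1B1, PDGFRB and PAX8. A gene that the rule names is not reported here. Chromosomes and promoters came from RefSeq (GRCh38.p14), with a chromosome for 14267 of 14318 genes. No pair of the 12 libraries agreed within sampling noise (chi-square per gene at least 2.24). On simulated counts for the comparison with SC (14412 genes, 200 changed), 82.1% of 1.5-fold, 86.6% of 2-fold and 97.0% of 4-fold changes were called. For the guide comparison (14165 genes) these shares were 85.1%, 89.6% and 97.0%. There the counts were drawn around block means with the spread that the fit estimated. No set difference between replicates 1 and 2 and replicates 3 and 4 was built in. Whether the shares hold for the real libraries was not tested. Of 197 genes called on the simulated counts for the comparison with SC, 20 were false calls. For the guide comparison 14 of 195 were. In both cases the share of false calls was above the adjusted p limit used for calls.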

Additional observations from a re-analysis of the deposited data

Results flagged for a closer look

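In groups of 4 libraries, 15 of 198 (7.58%) had 1 library whose gap to the rest exceeded Dixon's 95% critical value, which chance gives in about 1 group of 20. In block A, iMAE-1.1 replicate 2 stood apart for DHRS3 (7.58 CPM, others 4.44 to 4.96), CHRDL1 (38.7 CPM, others 44.5 to 45.7) and TRAF1 (5.44 CPM, others 8.96 to 9.47). In the same block iMAE-1.2 replicate 4 stood apart for IFI6 (19.6 CPM, others 15.9 to 16.4), IFI27 (3.40 CPM, others 2.23 to 2.31) and GDF15 (9.31 CPM, others 8.08 to 8.24), and iMAE-1.1 replicate 1 for PEAR1 (15.2 CPM, others 16.6 to 16.7). In block B, iMAE-1.1 replicate 3 was high for SLAMF8 (8.92 CPM, others 6.60 to 6.73), ADAMTS5 (19.98 CPM, others 15.97 to 16.1), MMP13 (11.96 CPM, others 10.6 to 10.8) and MALL (35.8 CPM, others 32.1 to 32.6). There, iMAE-1.2 replicate 2 was high for TRABD2B (13.9 CPM, others 11.8 to 12.1) and iMAE-1.2 replicate 1 for COL14A1 (3.20 CPM, others 2.38 to 2.48). Among SC libraries, replicate 6 was high for LOC101927229 (3.05 CPM, others 2.44 to 2.47) and replicate 5 low for HNRNPA1P33 (6.41 CPM, others 7.83 to 8.02).

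The guide by block interaction, the same contrast as replicates 1 and 2 against replicates 3 and 4, passed for MINOS1-NBL1 (edgeR's quasi-likelihood test, adjusted p = 9.95e-06), the read-through transcript whose counts were uncertain.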

How the results depend on the processing

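Counts of genes moved with the settings as follows. Between the guides, edgeR called 0 genes, DESeq2 1, edgeR without a filter on low counts 54, and fits that left out 1 library 0 to 4. The 4 without iMAE-1.2 replicate 3 were CNTF, ZFP91-CNTF, NME1-NME2 and MALAT1, and the 2 without iMAE-1.1 replicate 4 were LIMS3 and LIMS3L, so that MALAT1 was the one gene among these outside overlapping or copied genes. For the interaction the counts were 1 as reported, 8 by DESeq2, 53 without a filter, 0 at a minimum count of 50 and 1 to 65 with 1 library left out, where the lone library of its cell is assumed to vary like the others. The comparison with SC gave 2111, 648 without guide by block cells, 116 at 2-fold, and 1564 to 2332 with 1 library left out. Block genes numbered 667, 430 at a minimum count of 50, 357 as log2(TPM + 1), 3828 at any fold, 238 at 2-fold and 699 to 858 with 1 library left out, a rule that fewer libraries pass more easily. The chromosome 19 median was 0.28, 0.203 as log2(TPM + 1) and 0.27 to 0.30 with 1 library left out, and the chromosome 16 median was -0.26 and -0.27 to -0.24. The place of SC was 0.693, with 0.696 as log2(TPM + 1) and 0.697 for block genes of at least 2-fold. For 17 genes named against SC, 303 of 306 values under the alternatives stayed on the same side of the threshold and 3 lost the call. In the other fits run for these counts the value stayed within 1.5 times that reported. For the 56 named block genes, 28 of 670 fold changes under the alternatives moved by at least the SD within blocks, and 642 did not. Apart from TFCP2 without iMAE-1.2 replicate 3, all that moved were those as log2(TPM + 1), among them AMPH, SLN, AFP, ADAMTS5, MMP13, CYTIP and MCAM.

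No label says that the replicate numbers pair the libraries. Deviations of same-numbered libraries of both guides from their guide means correlated at -0.32, -0.27, -0.23 and -0.39, but same-numbered libraries lie in opposite blocks, so these values carry the block difference with its sign turned and do not show whether the numbers pair. With the replicate block in place of block A or B the guide count was 0, and with the replicate block over replicates 3 and 4 the comparison with SC gave 1491. The alternatives for the chromosome medians, the count without chromosomes 16 and 19, and the list counts in the fit that ignores guide and block were chosen after seeing the data. Depth limits genes of a few counts, such as CXCR4, and genes were named by the size of the same block difference, which favours large values.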

Other observations

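Other 786-M1A libraries of the series can be placed on the same 667 block genes after scaling all 22 libraries together, where 0 is block A and 1 is block B. The reads of those libraries fell on longer genes, with mean lengths of 3528 bases in iMAE-126 replicate 1 up to 3982 bases in 786-M1A replicate 2, so the values are given with no comparison. The median place was 0.280 and 0.242 for the 786-M1A libraries without a guide, 0.602 and 0.570 for SC replicates 1 and 2, and 0.749 and 0.778 for iMAE-126. The chromosome 19 median, as a difference from SC replicates 3 to 6, was -0.35 and -0.41 for 786-M1A, -0.10 and -0.20 for SC replicates 1 and 2, and -0.02 and -0.01 for iMAE-126. For chromosome 16 the medians in the same order were 0.11 and 0.05, 0.14 and 0.05, and 0.12 and 0.12.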
